A study of Mus musculus with 5 samples.

Results

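The genes encoding the proteasome were examined in bone marrow-derived macrophages (BMMs) cultured with semaphorin 3G (Sema3G), a secreted class 3 semaphorin. Members were the entries of the gene table whose symbol began with Psma, Psmb, Psmc, Psmd, Psme, Psmf or Psmg followed by a digit, and 50 of 24419 entries met this rule. One of them, Psmc3ip, encodes a meiotic recombination factor and is not a proteasome gene, which leaves 49. Bone marrow cells from C57BL/6 mice (C57BL6/J in the design text) were grown into macrophages with M-CSF at 50 ng/ml for 5 days and activated with 100 ng/ml LPS, also in the controls, before PBS (2 samples) or 100 ng/ml recombinant Sema3G (3 samples) was given for 18 h. No source used here gives the ages of the mice or says whether samples came from different animals or cultures, so p values measure the spread between these samples, which may be technical. The recombinant Sema3G carried an Fc tag and the control was PBS without a tagged protein. The comparison addressed which transcripts differed when activated BMMs met Sema3G.

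The 26S proteasome degrades proteins tagged with ubiquitin. Its 20S core is a barrel of α and β rings, whose inner faces carry the catalytic β subunits, and its 19S cap recognises, unfolds and feeds in the substrate. In cells exposed to interferon γ, and in many leukocytes, the constitutive catalytic subunits β1 (Psmb6), β2 (Psmb7) and β5 (Psmb5) of newly built cores are replaced by β1i (Psmb9), β2i (Psmb10) and β5i (Psmb8). The resulting immunoproteasome is known for producing peptides that fit MHC class I molecules, and macrophages are among the cells that use it.

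Each sample gave 1 library of RNA 3′ ends in which 1 unique molecular identifier (UMI) marked 1 RNA molecule, so that levels, given as CPM (UMIs scaled to a common library total), could be compared between genes without division by length. The libraries held between 1798469 and 2215855 UMIs, and 3 UMIs corresponded to between 1.35 and 1.67 CPM. The share of UMIs on listed genes was 77.6% and 75.6% with PBS and 71.3%, 67.1% and 65.9% with Sema3G. The ribosomal RNA precursor Rn45s took 1.01% and 3.19% with PBS and between 6.31% and 7.88% with Sema3G. CPM are relative to all UMIs, and the median log2 fold change of the 10088 genes tested was -0.22. After scaling the listed genes by TMM factors it was -0.0033. The 7 macrophage markers summed to between 8211 and 11668 CPM, whereas 5 of 6 lymphocyte markers and 3 of 5 neutrophil markers with an entry, among them Elane and Ngp, were at 0 in all libraries. RNA from fewer cells and less RNA per cell cannot be told apart in these bulk samples.

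Of the 50 members, 47 had a mean of at least 1 CPM and were tested. They spanned 6.999 CPM on average for Psmg2 to 255 CPM for Psma7, with 15 at 100 CPM or more and 4 under 10 CPM. The 3 others were rare or absent. Psma8, a testis form of α4, had 2 UMIs in each PBS library and 0, 0 and 4 in those with Sema3G. Psmb11, the β5t subunit of thymic epithelium, had 0 UMIs in all 5 libraries, which allows up to 1.67 CPM in the shallowest, and Psmc3ip had 0 to 5 UMIs.

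All 3 immunoproteasome subunits were detected in every library. Psmb8, the β5i subunit with chymotrypsin-like activity, was at 294 and 206 CPM in the PBS libraries and at 259, 173 and 172 CPM in the Sema3G libraries. Sema3G replicate 1 lay between the PBS libraries while the other two lay below them, so the groups overlapped. The means were 250 ± 62.1 CPM (SD, n = 2) and 201 ± 49.9 CPM (SD, n = 3), a log2 fold change of -0.32 on the log2(CPM + 1) scale with a standard error (SE) of 0.22 (95% interval -0.77 to 0.14, limma adjusted p = 0.406). It was -0.06 without PBS replicate 1, -0.57 without PBS replicate 2, -0.51 without Sema3G replicate 1 and -0.07 on TMM-scaled CPM. Its partner Psmb5, the constitutive β5, was at 31.3 and 25.7 CPM with PBS and at 31.1, 25.3 and 26.7 CPM with Sema3G. These values lay on top of each other, at 28.5 ± 3.97 and 27.7 ± 3.05 CPM (log2 fold change -0.04, 95% interval -0.54 to 0.47, limma adjusted p = 0.947). The sign of the Psmb5 value turned with the scaling, to 0.20 on TMM-scaled CPM (limma adjusted p = 0.726). There, and over listed genes other than Rn45s, all Sema3G libraries lay above both PBS libraries for Psmb5. The 3′ end of Psmb5 is nearly identical to processed pseudogenes (99.6% over 229 bases of Gm3375), so its reads may have been split or discarded.

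Psmb9, the β1i subunit, was at 129 and 65.8 CPM with PBS and at 85.6, 64.5 and 56.2 CPM with Sema3G. The ratio between the PBS libraries was the largest of the 6 catalytic subunits, and PBS replicate 2 stood next to the Sema3G libraries. Its log2 fold change was -0.44 (SE 0.26, limma adjusted p = 0.325). It turned to 0.04 without PBS replicate 1 and was -0.92 without PBS replicate 2 and -0.20 on TMM-scaled CPM. Psmb6, the constitutive β1, was at 119 and 97.4 CPM with PBS and at 113, 64.5 and 62.7 CPM with Sema3G. Again Sema3G replicate 1 stood with the PBS libraries and apart from the other two, and the log2 fold change was -0.48 (SE 0.24, limma adjusted p = 0.259). It was -0.24 on TMM-scaled CPM and ran from -0.75 to -0.33 with 1 library left out.

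Psmb10, the β2i subunit with trypsin-like activity, was at 110 and 92.6 CPM with PBS and at 88.4, 53.7 and 50.7 CPM with Sema3G. It was the one immunoproteasome subunit whose groups did not overlap on this scale. The means were 101 ± 12.2 CPM (SD, n = 2) and 64.3 ± 21.0 CPM (SD, n = 3), a log2 fold change of -0.69 (SE 0.23, 95% interval -1.18 to -0.20, limma adjusted p = 0.122). On TMM-scaled CPM Psmb10 had -0.45 (limma adjusted p = 0.309), and over listed genes other than Rn45s it had -0.40 and overlapping groups. The constitutive β2 gene Psmb7 was at 63.2 and 64.2 CPM with PBS and at 58.4, 42.9 and 48.4 CPM with Sema3G, also without overlap (log2 fold change -0.36, standard error 0.21, limma adjusted p = 0.330). On TMM-scaled CPM Psmb7 had -0.12 and its groups overlapped. Its 3′ end overlaps Nek6 on the other strand. None of the 6 catalytic subunits passed an adjusted p of 0.05.

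**Figure D1:**
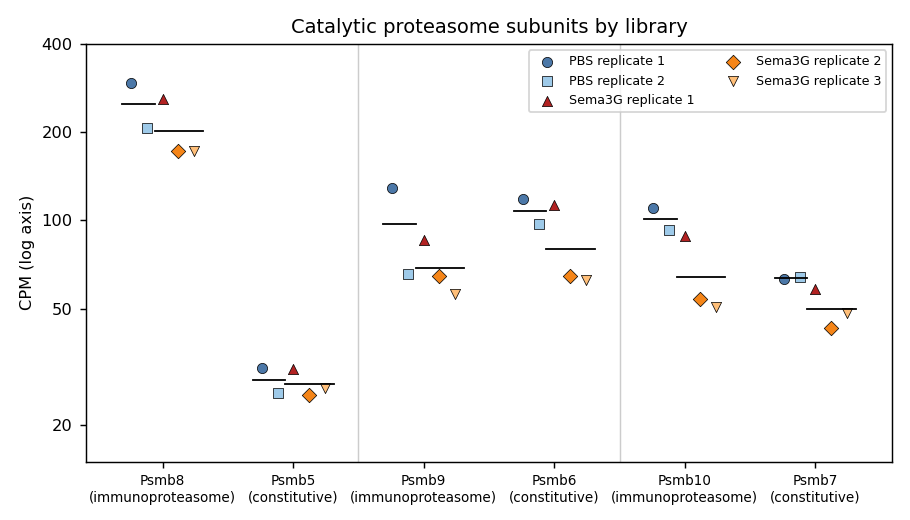
CPM (log axis) of the 3 immunoproteasome subunits, each beside its constitutive partner. Points are the 2 PBS and 3 Sema3G libraries and short lines are group means. Psmb8 lies far above Psmb5 in every library, and Sema3G replicates 2 and 3 lie below Sema3G replicate 1 in all 6 genes. Psmb5 may be undercounted because of its pseudogene copies.

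The 6 genes lie in 5 places of the mouse genome (GRCm38/mm10, GENCODE M21). Psmb9 (chr17:34181987-34187764, minus strand) and Psmb8 (chr17:34197721-34201454, plus strand) flank Tap1 (chr17:34187553-34197225, plus strand) in the MHC class II region, and the RefSeq starts of Psmb9 and Tap1 face away from each other with 225 bases between them. Psmb10 (chr8:105935735-105938444, minus strand), Psmb5 (chr14:54614119-54618022, minus strand), Psmb6 (chr11:70525367-70527858, plus strand) and Psmb7 (chr2:38588036-38644087, minus strand) stand apart. To show how the starts of the immune and constitutive genes read, stretches of RefSeq promoter sequence (GRCm38.p6) are printed 5′ to 3′ on the gene's strand, with matches to searched motifs in capitals. They lie within 250 bases before the RefSeq start. Those of Psmb8 (chr17:34198088-34198116, plus strand) and Psmb9 (chr17:34187370-34187395, minus strand) lie wholly within exons that GENCODE annotates, as do the whole windows of these genes, and only the bases around a match are shown. The others are Psmb10 (chr8:105938445-105938642, minus strand), Psmb6 (chr11:70525107-70525356, plus strand) and Psmg4 (chr13:34162714-34162963, plus strand), the last shown because Psmg4 had the lowest fold change of all members tested.
Psmb8: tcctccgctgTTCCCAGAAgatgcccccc
Psmb9: cgcgatgatgGGGCGGggcctcagtc
Psmb10: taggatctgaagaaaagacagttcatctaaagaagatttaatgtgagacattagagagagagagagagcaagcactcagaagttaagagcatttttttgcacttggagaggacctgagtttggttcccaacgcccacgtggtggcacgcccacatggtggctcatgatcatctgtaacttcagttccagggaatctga
Psmb6: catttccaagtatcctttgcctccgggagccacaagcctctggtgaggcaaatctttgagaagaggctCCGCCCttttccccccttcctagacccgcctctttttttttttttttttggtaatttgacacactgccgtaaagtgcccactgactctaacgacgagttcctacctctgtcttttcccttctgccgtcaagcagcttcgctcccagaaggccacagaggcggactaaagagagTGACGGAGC
Psmg4: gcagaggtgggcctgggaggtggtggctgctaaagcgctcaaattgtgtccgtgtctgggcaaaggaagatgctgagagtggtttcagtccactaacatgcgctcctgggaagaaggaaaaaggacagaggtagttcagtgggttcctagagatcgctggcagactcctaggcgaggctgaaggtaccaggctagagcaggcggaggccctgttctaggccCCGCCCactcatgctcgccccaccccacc
The Psmb8 match is a GAS, the interferon γ-activated site (TTCNNNGAA). It was held by 2 of 42 member genes with a window of 250 bases (Psmb8 and Psmg1) and by 7.02% of all 32851 windows. Here a member counted if any of its windows held the motif, whereas the shares of all are per window. The Psmb9, Psmb6 and Psmg4 stretches hold the GC box GGGCGG, in the last 2 on the opposite strand. The GC box was found in 22 of 42 member genes against 32.7% of all windows. At its 3′ end the Psmb6 stretch holds TGACNNNGC, the antioxidant response element, found in 5 of 42 member genes and 10.2% of all windows. An ISRE (GAAA, any 2 bases, GAAA), the element bound by interferon regulatory factors, was in 3 of 42 (Psmb3, Psmd4 and Psmd9) and 2.98% of all, and an NF-kB motif (GGGA, any 4 bases, CC) in 10 of 42 and 17.6% of all. The CCAAT box was in 15 of 42 and 33.9% of all. The printed Psmb10 stretch holds none of these 6 motifs, which were searched on both strands and may overlap one another. A match describes letters only.

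Within a library the balance of each pair does not depend on scaling. Psmb8 exceeded Psmb5 by 9.39-fold and 8.02-fold with PBS and by 8.32-fold, 6.84-fold and 6.45-fold with Sema3G. The size of this ratio is uncertain, because Psmb5 reads may have been split with pseudogene copies or discarded, and no such copy of Psmb8 was found. Psmb8 thus made up 90.4% (95% exact binomial interval 87.7% to 92.6%) of the pair's UMIs in PBS replicate 1 and 86.6% (83.0% to 89.6%) in Sema3G replicate 3, the highest and lowest shares. The difference in log2 ratio, Sema3G minus PBS, was -0.28 (two-sided exact permutation p = 0.4). The Psmb10 to Psmb7 ratio was 1.74 and 1.44 with PBS and 1.51, 1.25 and 1.05 with Sema3G. This gave a difference in log2 ratio of -0.33 (exact permutation p = 0.4). For Psmb9 to Psmb6 the ratio was 1.09 and 0.676 with PBS and 0.759, 1 and 0.897 with Sema3G, and the log2 difference was 0.04 (exact permutation p = 1). The sign of this last difference turned without PBS replicate 2 (-0.30) and without Sema3G replicate 2 (-0.06). Groups overlapped for all 3 ratios, the adjusted p values over the 3 were 0.6, 0.6 and 1, and with 2 against 3 samples the smallest p possible is 0.2. This test therefore could not show a change in the balance between immune and constitutive subunits, whatever its size.

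**Figure D2:**
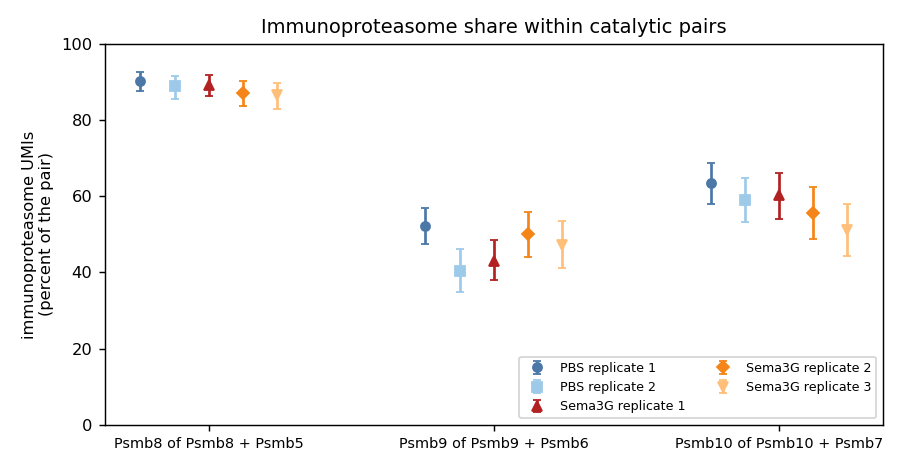
Immunoproteasome UMIs as a percentage of the UMIs of each catalytic pair, by library, with 95% exact binomial intervals that cover counting error only. Psmb8 held 86.6% to 90.4% of its pair in every library, where Psmb5 may be undercounted because of its pseudogene copies. Psmb9 held 40.3% to 52.1% of its pair, with intervals below 50% in PBS replicate 2 and Sema3G replicate 1.

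Across the 47 members tested, no gene passed an adjusted p of 0.05 in either direction by limma, where 1.59% of all genes tested were called higher and 0.218% lower. Before adjustment, p was under 0.05 for 1 higher and 9 lower members, or 2.13% and 19.1%, beside 6.83% and 14.2% of all genes. In 15 members (31.9%) the Sema3G libraries lay below both PBS libraries and in 2 members (4.26%) above, while this held for 26.5% and 11.9% of all genes. The log2 fold change was below 0 in 39 of 47 members, beside 67.5% of all genes, with medians of -0.31 and -0.22. On TMM-scaled CPM it was below 0 in 27 of 47 members, beside 50.3% of all genes, with medians of -0.07 and -0.0033. The separation of the groups also moved with the scaling, to 8 members below (17%, beside 13.2% of all genes) and 7 above (14.9%, beside 19%) on TMM-scaled CPM. Below on both scales were Psma6, Psmb1, Psmb3, Psmb4, Psmb10, Psmd8, Psme3 and Psmg4, with values from -0.82 for Psmg4 to -0.30 for Psmb3 on TMM-scaled CPM. Over listed genes other than Rn45s 6 members lay below (12.8%, beside 10.5% of all genes) and 8 above (17%, beside 21.3%). The shares of Rn45s and of UMIs on listed genes moved with the groups, and their part in these values was not tested beyond the rescaling. Without Sema3G replicate 1, 8 members were called lower (Psmg4, Psmb4, Psmb10, Psma6, Psmd8, Psmb1, Psmb3 and Psmb6), and 0 higher, where 4.36% of all genes were lower and 2.68% higher. In that fit Psmb10 had a log2 fold change of -0.94 and Psmb6 one of -0.75 (limma adjusted p = 0.0197 and 0.0357).

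**Figure D3:**
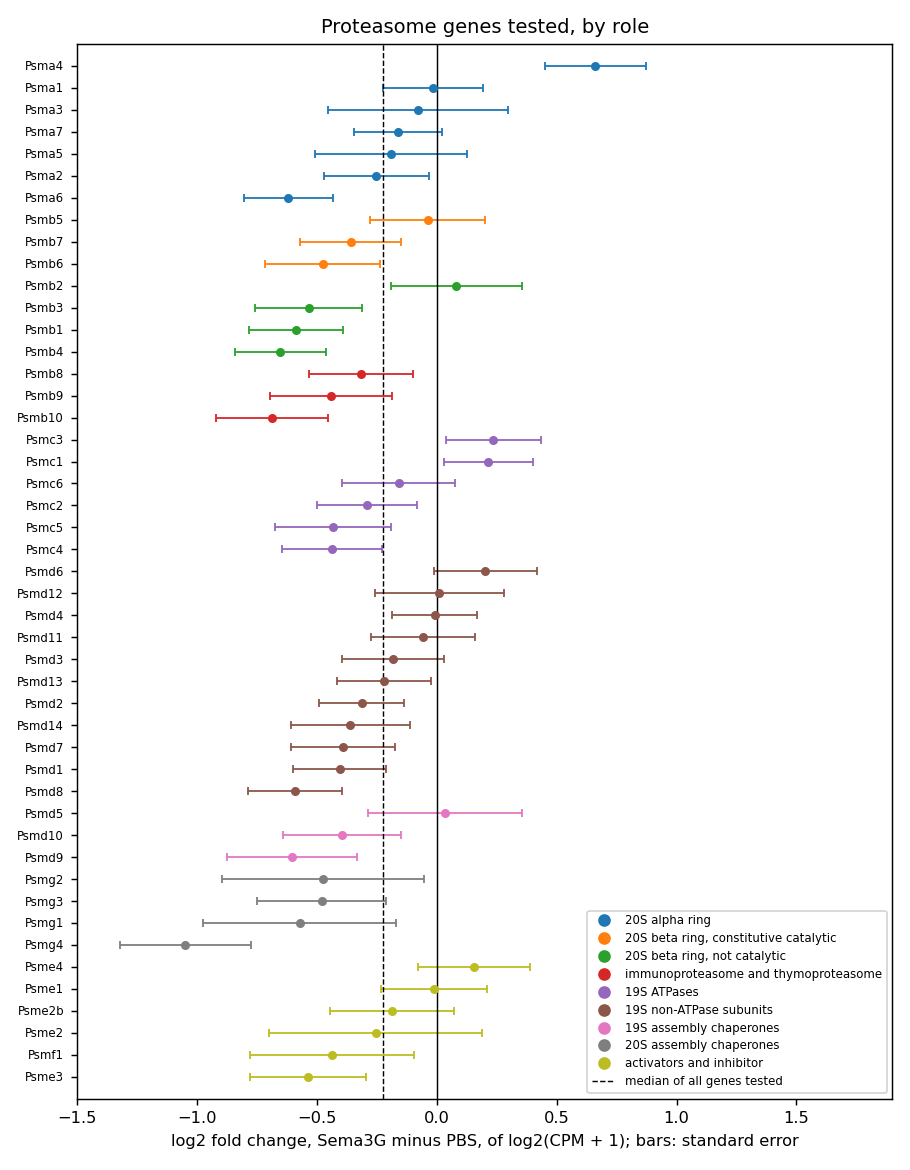
Log2 fold change (Sema3G minus PBS, on log2(CPM + 1)) with standard error for the 47 members tested, coloured by role. The dashed line is the median of all genes tested, at -0.22; Psma4 at 0.66 and Psmg4 at -1.05 are the ends of the range.

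The α ring forms the gate of the core. Psma7 (α4), the most abundant member at 270 and 274 CPM with PBS and 280, 222 and 231 CPM with Sema3G, had overlapping groups and a log2 fold change of -0.16 (limma adjusted p = 0.632) that was 0.082 on TMM-scaled CPM. Psma4 (α3), whose tail helps to close the gate, stood apart from the other 6 α subunits tested. It was at 38.5 and 33.2 CPM with PBS and at 61.7, 53.3 and 56.7 CPM with Sema3G. All Sema3G libraries lay above both PBS libraries, with means of 35.8 ± 3.73 CPM (SD, n = 2) and 57.2 ± 4.26 CPM (SD, n = 3). Its log2 fold change was 0.66 (SE 0.21, 95% interval 0.22 to 1.10, limma adjusted p = 0.106), or 0.89 above the median of all genes. With UMI counts recovered from the CPM, edgeR's quasi-likelihood test gave 0.92 (adjusted p = 0.0152), and Psma4 was the only member called there, where 4.63% of 8207 genes were higher and 0.0366% lower. It was likewise the only member called by limma on TMM-scaled CPM (adjusted p = 0.0151, where 3.75% of all genes were higher and 0.0198% lower) and on CPM over listed genes other than Rn45s (adjusted p = 0.00860, where 4.92% were higher and 0.0198% lower). DESeq2, which called 1.8% of genes higher and 0.00782% lower, called 0 members and gave Psma4 an adjusted p of 0.0545. The last 300 bases of Psma4 (chr9:54950790-54958030, plus strand) match the processed pseudogene Gm6542 at 98.3%, so its level is uncertain where reads were split between copies. Psma6 (α1) had the lowest value of the ring, with 163 and 161 CPM for PBS and 120, 104 and 94.0 CPM for Sema3G. These groups were separate (log2 fold change -0.62, standard error 0.19, limma adjusted p = 0.0935).

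The β subunits without catalytic activity had a median log2 fold change of -0.56, beside -0.22 for all genes tested. In 3 of 4 the Sema3G libraries lay below both PBS libraries, which 26.5% of all genes tested did. Psmb4 (β7), which clasps the opposite β ring with its tail, was at 188 and 163 CPM with PBS and at 127, 108 and 99.6 CPM with Sema3G. The means were 175 ± 17.8 and 112 ± 14.3 CPM, a log2 fold change of -0.65 (SE 0.19, limma adjusted p = 0.0857). Psmb1 (β6) was the most abundant of them, at 203 and 207 CPM with PBS and 171, 123 and 119 CPM with Sema3G (log2 fold change -0.59, limma adjusted p = 0.122), and Psmb3 (β3) had -0.53 (limma adjusted p = 0.187). Psmb2 (β4) differed in sign, with 35.7 and 21.9 CPM for PBS and 39.5, 25.3 and 26.3 CPM for Sema3G. Its log2 fold change of 0.08 turned to -0.26 without PBS replicate 2 and -0.12 without Sema3G replicate 1.

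In the 19S cap, the 6 AAA ATPases that unfold substrates had a median of -0.22, close to that of all genes. Psmc1 (Rpt2), which opens the gate of the core, was the most abundant of them at 151 and 173 CPM with PBS and 196, 164 and 207 CPM with Sema3G (log2 fold change 0.22, limma adjusted p = 0.508). Psmc3 (Rpt5), at 131 and 95.3 CPM with PBS and 152, 119 and 126 CPM with Sema3G, had 0.24 (limma adjusted p = 0.496), which was 0.01 without PBS replicate 2 and 0.46 without PBS replicate 1. Reads of Psmc3 may include those of Slc39a13, which overlaps its 3′ end on the other strand. Psmc4 (Rpt3) was the one ATPase without overlap in the deposited CPM, at 85.2 and 76.0 CPM with PBS and 73.4, 53.7 and 52.6 CPM with Sema3G (log2 fold change -0.44, limma adjusted p = 0.240). On TMM-scaled CPM Psmc4 had -0.20 with overlapping groups, while Psmc1 and Psmc3 had 0.46 and 0.48 with all Sema3G libraries above both PBS libraries.

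The 11 non-ATPase subunits tested also had a median of -0.22, close to that of all genes. The Sema3G libraries lay below PBS in 4 (36.4%) and above in 1 (9.09%), close to the 26.5% and 11.9% of all genes. Psmd8 (Rpn12) was the most abundant and the lowest in fold change of them, at 264 and 271 CPM with PBS and 223, 165 and 151 CPM with Sema3G (log2 fold change -0.59, standard error 0.20, limma adjusted p = 0.121). Psmd6 (Rpn7) lay above, at 36.3 and 35.9 CPM with PBS and 41.1, 44.2 and 39.6 CPM with Sema3G. The separation was complete but small, with a log2 fold change of 0.20 (limma adjusted p = 0.598). The ubiquitin receptor Psmd4 (Rpn10) and the deubiquitinase Psmd14 (Rpn11) had overlapping groups in the deposited CPM. Their log2 fold changes were -0.01 and -0.36 (limma adjusted p = 0.984 and 0.404), and 0.23 and -0.12 on TMM-scaled CPM. On that scale all Sema3G libraries lay above both PBS libraries for Psmd4. With 1 library left out, the value of Psmd14 ran from -0.69 to -0.03.

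Chaperones that assemble the core had values below 0 in 4 of 4 cases, as did 67.5% of all genes tested. Psmg4 (chr13:34162964-34178173, plus strand), which pairs with Psmg3 on the forming α ring, was at 39.6 and 31.0 CPM with PBS and at 21.1, 16.2 and 12.9 CPM with Sema3G. The groups were separate, at 35.3 ± 6.02 CPM (SD, n = 2) and 16.8 ± 4.13 CPM (SD, n = 3). With a log2 fold change of -1.05 (SE 0.27, 95% interval -1.62 to -0.47, limma adjusted p = 0.0582), Psmg4 had the lowest value of the 47 members, and it was -0.84 in edgeR's quasi-likelihood test (adjusted p = 0.0656). Psmg3 was at 32.4 and 26.2 CPM with PBS and at 26.1, 20.8 and 16.1 CPM with Sema3G, with PBS replicate 2 and Sema3G replicate 1 almost equal (log2 fold change -0.48, limma adjusted p = 0.308). Psmg1 and Psmg2, the other chaperone pair, averaged under 10 CPM. Psmg2 had 19 and 12 UMIs in the PBS libraries against 17, 8 and 11 in the Sema3G libraries, and the groups overlapped (log2 fold change -0.47, limma adjusted p = 0.521). With 1 library left out, the value of Psmg2 ran from -0.80 to -0.16.

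Of the chaperones of the cap, Psmd9 (p27) was at 36.3 and 27.3 CPM with PBS and at 20.02, 26.2 and 16.1 CPM with Sema3G (log2 fold change -0.60, limma adjusted p = 0.213). Psmd10 (gankyrin) and Psmd5 had overlapping groups and log2 fold changes of -0.39 and 0.04 (limma adjusted p = 0.361 and 0.961). With 1 library left out, the value of Psmd10 ran from -0.59 to -0.18. The sign for Psmd5 turned to -0.25 without PBS replicate 2 and -0.04 without Sema3G replicate 1.

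Among the activators that cap the core in place of 19S, Psme1 (PA28α), an interferon-responsive gene like the immunoproteasome subunits, was at 142 and 96.9 CPM with PBS and at 149, 111 and 95.4 CPM with Sema3G. The groups covered the same range, with a log2 fold change of -0.01 (limma adjusted p = 0.985) that was 0.23 on TMM-scaled CPM. Its 3′ end overlaps Emc9 on the other strand and matches the processed pseudogene Gm7776 at 95.5% over 224 bases, so its level is uncertain. Its partner PA28β is uncertain, since Psme2 (5.07 to 14.5 CPM) and its copy Psme2b (30.4 to 57.1 CPM) share 99.0% of their last 300 bases. Psme3 (PA28γ), the nuclear activator, was at 31.9 and 38.5 CPM with PBS and at 26.7, 23.9 and 21.2 CPM with Sema3G. These were separate (log2 fold change -0.54, standard error 0.24, limma adjusted p = 0.214). Psme4 (PA200) had 0.16 and the inhibitor Psmf1 (PI31) had -0.44, both with overlapping groups (limma adjusted p = 0.720 and 0.461). Leaving out 1 library at a time gave 0.04 to 0.38 for Psme4 and -0.90 to 0.02 for Psmf1, the positive value of Psmf1 without PBS replicate 1.

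The order of the libraries was shared by several roles. Summed over all members, the level was 4454 and 3861 CPM with PBS and 4049, 3116 and 3144 CPM with Sema3G, so Sema3G replicate 1 lay between the PBS libraries. As a share of UMIs on listed genes these sums were 0.574% and 0.511% with PBS and 0.568%, 0.464% and 0.477% with Sema3G, in the same positions for Sema3G replicate 1. The 3 immunoproteasome subunits summed to 533 and 365 CPM with PBS and 433, 291 and 279 CPM with Sema3G, and the 3 constitutive partners to 213 and 187 CPM and 202, 133 and 138 CPM.

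Among the 6 catalytic subunits, the PBS libraries differed from each other beyond counting error in Psmb9 and Psmb8. The ratio of PBS replicate 1 to PBS replicate 2 was 1.96 for Psmb9 (95% exact interval 1.57 to 2.46) and 1.43 for Psmb8 (1.25 to 1.63). The interval included 1 for Psmb10 at 1.19, for Psmb5 and Psmb6 at 1.22 each and for Psmb7 at 0.984. These intervals cover counting error only. Over the 47 members the interval lay above 1 in 15 (31.9%) and below 1 in 0, beside 15.7% and 6.15% of all genes tested, with a median ratio of 1.22 beside 1.09 over all genes tested.

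**Figure D4:**
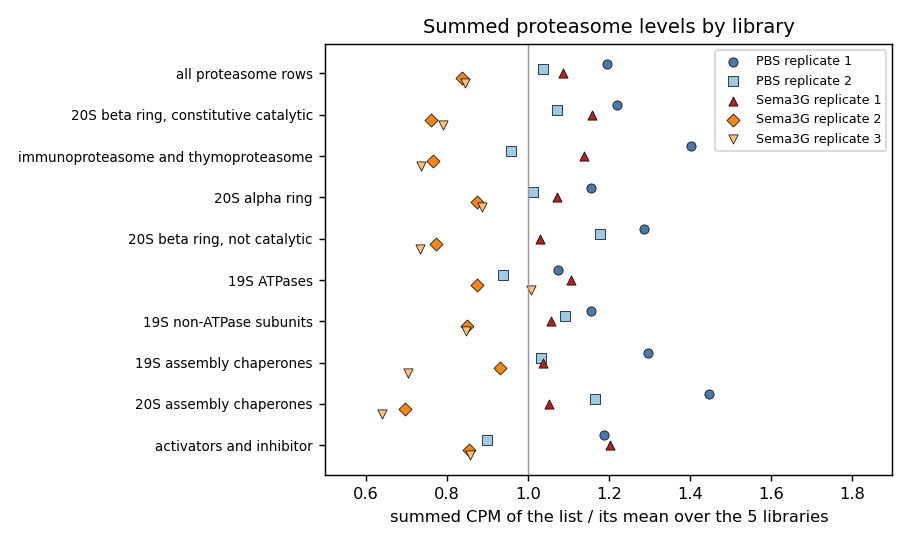
Summed CPM of the members of each role divided by its mean over the 5 libraries. Sema3G replicates 2 and 3 are the lowest points in 9 of the 10 lines plotted, all but that of the 19S ATPases. Sema3G replicate 1 lies between the PBS libraries for all members, the immunoproteasome, the constitutive catalytic subunits, the α ring and the 19S assembly chaperones.

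Other genes of the pathway were taken from a list of 21, of which 20 had an entry and 19 were tested. None passed an adjusted p of 0.05 by limma in either direction, and the median log2 fold change was -0.24. Pomp, the maturation factor of the core, had the lowest value, with 499 and 296 CPM for PBS and 329, 202 and 204 CPM for Sema3G. Sema3G replicate 1 again lay between the PBS libraries (log2 fold change -0.68, limma adjusted p = 0.137). On TMM-scaled CPM Pomp had -0.44 (limma adjusted p = 0.323). With 1 library left out its value ran from -1.06 to -0.31, the lowest without PBS replicate 2. Without Sema3G replicate 1 the adjusted p of Pomp from limma was 0.0342, where 4.36% of all genes were called lower. Nfe2l2, a transcription factor that can induce proteasome genes, had the highest value, with 181 and 234 CPM for PBS and 262, 292 and 293 CPM for Sema3G. These were separate (log2 fold change 0.45, limma adjusted p = 0.183 and adjusted p = 0.0709 from edgeR's quasi-likelihood test), and with CPM over listed genes other than Rn45s its limma adjusted p was 0.0249. Nfe2l1, which drives the recovery of proteasome genes when the proteasome is blocked, had -0.24 (limma adjusted p = 0.483), and 0.0047 on TMM-scaled CPM.

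Of 7 genes of MHC class I presentation and its regulators, none passed either, and the median log2 fold change was -0.40. Their summed CPM, mostly B2m, was 15057 and 12195 with PBS and 13124, 7166 and 6089 with Sema3G, which is the library order of the immunoproteasome sum. Tap1, the peptide transporter gene next to Psmb9, was at 72.5 and 55.1 CPM with PBS and at 53.4, 39.7 and 37.8 CPM with Sema3G (log2 fold change -0.54, limma adjusted p = 0.186). Irf1, a transcription factor known to induce Psmb9, was at 147 and 107 CPM with PBS and at 101, 85.3 and 73.3 CPM with Sema3G (log2 fold change -0.54, limma adjusted p = 0.156). The peptide-trimming enzyme Erap1 had the highest value, from 7.69 and 6.42 CPM with PBS to 15.6, 18.1 and 10.6 CPM with Sema3G (log2 fold change 0.94, limma adjusted p = 0.138). With CPM over listed genes other than Rn45s the limma adjusted p of Erap1 was 0.0394, and on TMM-scaled CPM it was 0.0570. The adjusted p of Erap1 was 0.0594 from edgeR's quasi-likelihood test and 0.252 from DESeq2. B2m and Tapbp had log2 fold changes of -0.73 and -0.40 (limma adjusted p = 0.298 for each). Without Sema3G replicate 1 their limma adjusted p values were 0.0435 and 0.0432, where 4.36% of all genes were called lower. With 1 library left out their values ran from -1.08 to -0.50 and from -0.62 to -0.26. On TMM-scaled CPM, B2m, Tapbp, Tap1 and Irf1 had -0.49, -0.16, -0.31 and -0.30 (limma adjusted p = 0.502, 0.739, 0.502 and 0.449). Tap2, the other chain of the transporter, and Nlrc5, a regulator of class I genes, had overlapping groups and log2 fold changes of -0.0033 and -0.23 (limma adjusted p = 0.995 and 0.787), which were 0.24 and -0.03 on TMM-scaled CPM.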

How the data were processed

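RNA of 5 BMM samples was analysed (2 PBS, 3 Sema3G). The authors made QuantSeq 3′ FWD libraries with UMIs, mapped the reads to mm10, counted UMIs with Strand NGS and normalized them with EdgeR (edgeR 3.12 in the submitters' processing notes). No source used here gives the annotation, strand setting or filters. The deposited values are CPM, with p-values and q-values of the authors' own comparison, which were not used. All CPM were whole multiples of the value of 1 UMI (100% within 0.01 of a whole number), which gave UMI counts and library totals; intervals and limits for counts of 0 cover counting error only.

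Because the values are CPM, a linear model with a trended prior variance (limma 3.58.1 in R 4.3.3) was fitted on log2(CPM + 1) over the 10088 of 24419 entries with a mean of at least 1 CPM, and p values were adjusted by the Benjamini-Hochberg method over all of them. edgeR 4.0.16 (quasi-likelihood) and DESeq2 1.42.0 on the recovered counts, pseudocounts of 0.1 and 5, other filters and scalings, a replicate block and leaving out each library were alternatives. Group overlap under the other scalings was added after seeing the data. Only the main limma, edgeR and DESeq2 fits were tested on simulated counts. Library pairs differed by more than sampling noise (chi-square per degree of freedom 1.77 to 29.6), and all 5 were counted separately. Sema3G replicates 2 and 3 were by far the closest pair at 1.77, and every other pair was at 6.57 or more. Such differences do not show that samples are independent, because handling of the libraries also adds spread.

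The members and the lists were chosen with earlier results of these data known. For each role the text names the genes with the highest level and the highest and lowest fold change, the 6 catalytic subunits, and for the other lists the highest and lowest; Psmb3, Psmd4, Psmd14, Psme2, Psme2b, Psmf1, Psmg1, Nfe2l1, Irf1, Tap1, Tap2, Tapbp and Nlrc5 were added for their roles or pairing, after their values were seen. The last 300 bases of each member were aligned to GENCODE M21 transcripts, and 12 members had a copy with at least 95% identity over at least 75 bases (a median level of 45.5 CPM, and 66.0 CPM in the 35 without). Marker lists for dendritic cells (3 of 4 at 0), mast cells and basophils (2 of 3 at 0) and stromal cells (4.28 to 12.1 CPM in sum) were also looked up, and no marker was called. A further gene is not reported here. Promoters came from RefSeq (GRCm38.p6), with a window for 42 members.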

Additional observations from a re-analysis of the deposited data

How the results depend on the processing

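The count of members called was 0 higher and 0 lower under pseudocounts of 0.1 and 5, both other filters and DESeq2. One member, Psma4, was called higher with edgeR's quasi-likelihood test, with TMM-scaled CPM and with CPM over listed genes other than Rn45s (1 each). Leaving out each library in turn gave 0 higher in every case and from 0 to 8 lower, all 8 without Sema3G replicate 1. The member median minus that of all genes was -0.09 and ran from -0.20 to 0.066 over the libraries left out, with the positive value without PBS replicate 1. Over all genes, 160 called higher became 496 (listed genes other than Rn45s), 378 (TMM), 380 (quasi-likelihood), 230 (DESeq2), 104 (no filter), 120 (pseudocount 0.1) and 27 to 270 (a library left out), and 22 called lower became 2, 2, 3, 1, 4, 5 and 0 to 440. The causes were not tested.

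The replicate numbers do not pair the samples by any label. Deviations from the group means correlated at 0.17 and 0.11 in the 2 numbered pairs, and at 0.097 for PBS replicate 2 with Sema3G replicate 3. With 2 PBS libraries the PBS deviations mirror each other, so these correlations cannot show a pairing. A replicate block by number sets Sema3G replicate 3 aside because it has no partner. In this fit 298 genes (2.95%) were called higher and 275 (2.73%) lower. Among the members 1 was higher (Psma4) and 3 were lower (Psmg4, Psmb4 and Psma6), and the log2 fold change of Psme1 was 0.13. Outside the members, Pomp (-0.57, limma adjusted p = 0.0201) and Erap1 (1.15, limma adjusted p = 0.0382) were called in this fit. The log2 ratio differences were then -0.20 for Psmb8 to Psmb5, 0.02 for Psmb9 to Psmb6 and -0.20 for Psmb10 to Psmb7.

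From below 0 to above 0, 14 of 47 members turned under at least 1 of 4 alternatives (12 with TMM, 14 with listed genes other than Rn45s, 11 with quasi-likelihood and 10 with DESeq2), 0 of them called. Of the genes named by the rule these were Psma7 (0.13 with listed genes other than Rn45s, 0.052 with DESeq2, 0.082 with TMM and 0.081 with quasi-likelihood), Psmb5 (0.25, 0.17, 0.20 and 0.20) and Psme1 (0.28, 0.20, 0.23 and 0.23) in the same order. With 1 library left out, the sign turned in 17 of 47 members. Over the libraries left out, log2 fold changes ran from -0.18 to 0.10 for Psmb5, -0.92 to 0.041 for Psmb9, -0.29 to 0.26 for Psme1, -0.26 to 0.42 for Psmb2 and -0.25 to 0.32 for Psmd5. The Psmb9 to Psmb6 log2 ratio difference ran from -0.30 to 0.38, that of Psmb8 to Psmb5 from -0.39 to -0.16 and that of Psmb10 to Psmb7 from -0.46 to -0.20. Groups of 2 and 3 samples limit the precision of all these values.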
